A study of Mus musculus with 2 samples.

Results

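Nrf2, encoded by Nfe2l2, is the transcription factor that switches on antioxidant and detoxifying genes. The gene set described here comprised Nfe2l2, Keap1, which encodes its inhibitor, and 8 enzyme genes known as Nrf2 targets: Gclc, Gclm, Gsr, Gpx2, Txnrd1, Srxn1, Nqo1 and Hmox1. The 10 genes were taken by symbol from a table of 18067 genes, in which every one of them was found once. The RNA-seq data came from mouse cells whose label is small intestinal stem cells, with 1 library from the circBtnl1 wild-type genotype and 1 from the circBtnl1 knockout genotype. circBtnl1 is a circular RNA named for the butyrophilin-like gene Btnl1. How the knockout was made, the number and age of the mice and the way the cells were isolated were not given in the sources used here. With a single library in each group, the spread between mice is unknown, no test was possible, and every value below describes these 2 libraries.

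In resting cells the Keap1 protein holds Nrf2 and, as the adaptor of a Cul3 ubiquitin ligase, marks it for the proteasome. Oxidants and electrophiles modify cysteines of Keap1, Nrf2 escapes degradation, pairs with a small Maf protein and binds the antioxidant response element near its target genes. Control of Nrf2 is thus largely at the level of the protein, which RNA-seq does not measure. The gut epithelium meets oxidants from food, bacteria and immune cells, and it carries a glutathione peroxidase of its own, encoded by Gpx2.

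The antioxidant response element has the core TGACNNNGC, and its letters were looked for on both strands of the RefSeq promoter windows (build GRCm38.p6, 250 bases before to 50 after a start). Windows were found for 7 of the 10 genes (9 windows, as Txnrd1 has 3), and those of Hmox1, Gclc and Gsr were not among them. The core was present in a window of 4 genes, Nfe2l2, Gclm, Txnrd1 and Srxn1, and the same letters were in 12.4% of all 32851 windows, or in a window of 14% of all genes. These 4 windows are shown because they hold the letters. Each is written in the direction of its gene, and capitals mark every match to TGACNNNGC or to the related core TGAGNNNGC, which was in 17.6% of windows and was added after the sequences were seen.
Nfe2l2 (chr2:75704614-75704913, minus strand): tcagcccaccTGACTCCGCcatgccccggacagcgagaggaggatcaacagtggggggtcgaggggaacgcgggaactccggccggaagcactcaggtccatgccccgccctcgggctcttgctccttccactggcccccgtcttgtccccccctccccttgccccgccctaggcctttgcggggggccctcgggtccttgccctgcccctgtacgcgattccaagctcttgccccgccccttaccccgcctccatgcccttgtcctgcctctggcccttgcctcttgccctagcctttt
Gclm (chr3:122245307-122245606, plus strand): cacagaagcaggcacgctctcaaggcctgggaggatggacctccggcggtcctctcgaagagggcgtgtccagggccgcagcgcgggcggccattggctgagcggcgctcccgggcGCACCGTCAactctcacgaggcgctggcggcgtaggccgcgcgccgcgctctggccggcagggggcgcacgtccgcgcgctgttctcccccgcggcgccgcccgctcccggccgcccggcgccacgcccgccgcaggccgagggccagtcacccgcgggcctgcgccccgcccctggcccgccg
Txnrd1 (chr10:82858956-82859255, plus strand): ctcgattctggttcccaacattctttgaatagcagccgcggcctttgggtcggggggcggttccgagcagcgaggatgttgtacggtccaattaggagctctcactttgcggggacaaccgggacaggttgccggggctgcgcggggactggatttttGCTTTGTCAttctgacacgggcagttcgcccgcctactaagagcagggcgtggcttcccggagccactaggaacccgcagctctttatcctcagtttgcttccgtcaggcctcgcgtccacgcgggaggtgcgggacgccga
Srxn1 (chr2:152105274-152105573, plus strand): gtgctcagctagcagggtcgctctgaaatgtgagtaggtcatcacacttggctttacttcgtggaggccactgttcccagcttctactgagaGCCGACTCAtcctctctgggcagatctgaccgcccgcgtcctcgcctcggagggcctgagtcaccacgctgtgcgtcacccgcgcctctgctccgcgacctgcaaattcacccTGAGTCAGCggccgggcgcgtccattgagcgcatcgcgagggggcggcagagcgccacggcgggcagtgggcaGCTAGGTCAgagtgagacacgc

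In Nfe2l2 the match read TGACTCCGC and lay 240 to 232 bases before the start. In Gclm the match was on the opposite strand, 134 to 126 bases before the start. In Txnrd1 it was also on the opposite strand, 92 to 84 bases before the start used for the window shown. The other Txnrd1 windows held no match to either core, the window where the gene begins (chr10:82833701-82834000) among them. The Txnrd1 match was the only one in these 7 genes that was followed by an A, a longer form of the core found in 3.04% of all windows. In Srxn1 the core lay after the start, at bases 29 to 37, and the TGAGNNNGC form occurred at 158 to 150 and at 45 to 37 bases before it. The latter match, TGAGTCAGC, overlaps the AP-1 motif TGACTCA read on the opposite strand, and a further AP-1 match lay 102 to 96 bases before the start. Srxn1 alone of the 7 genes had the AP-1 letters, against 5.2% of all windows. The windows of Keap1, Nqo1 and Gpx2 held neither core, which says only that these letters are not in these 300 bases.

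Values are given in TPM, the share of all transcripts corrected for length, so that levels of different genes can be set side by side. Ratios are knockout over wild-type, and the log2 ratio was taken after adding 0.1 to each TPM, while folds are plain ratios of TPM. Gene positions are those of RefSeq on GRCm38.p6. In each pair of values the wild-type library comes first. A gene was taken as measured when its TPM averaged 1 or more, which held for all 10 members and for 12666 genes in all. The depth estimated from the table was about 20000000 and 17500000 reads. Among measured genes the median log2 ratio was 0.39, so a gene with equal TPM lay below most others. Of all measured genes, 23.1% were higher by 2-fold or more in knockout cells and 5.25% were lower by as much. Relative to the median gene these shares were 13.5% and 10.2%, and the share of higher genes among those past 2-fold went from 81.5% to 57%.

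Most markers of the labelled cell type stood below the median measured gene in both libraries. Of 6 stem cell markers, which summed to 60.9 and 72.5 TPM, Olfm4 stood at 0.2 and a listed 0, Lgr5 at 3.13 and 1.55 TPM and Ascl2 at 3.88 and 4.83 TPM. Smoc2 (15.5 and 7.72 TPM), Axin2 (16.9 and 19.3 TPM) and Sox9 (21.3 and 39.2 TPM) stood above Olfm4, Lgr5 and Ascl2 in both libraries. Over measured genes the median was 16.4 and 22.5 TPM, and of the 6 markers only Sox9 exceeded it in both libraries. Markers of differentiated cells summed to more, to 22090 and 13720 TPM for 6 goblet cell genes, 2291 and 1721 TPM for 8 enterocyte genes and 594 and 2681 TPM for the 4 Paneth cell genes in the table. Within the latter lists Krt20 (2065 and 919 TPM), Fabp2 (135.2 and 757 TPM) and Ang4 (583 and 2679 TPM) were abundant, while Sis, Apoa4 and Lyz1 lay between a listed 0 and 0.87 TPM. Ang4 made up nearly all of the Paneth cell sum. The 3 other Paneth cell genes were lower in the knockout library, against 29.8% of all measured genes, with Mmp7 at 9.29 and 1.1 TPM. Of the 8 enterocyte genes 4 were higher and 4 lower, against 70.2% and 29.8% of all measured genes, with Slc15a1 at 45.6 and 8.6 TPM. The posterior homeobox gene Hoxb13 was at 429 and 119 TPM, and the carbonic anhydrase gene Car1 at 6272 and 15252 TPM. The match of the cells to their label was not tested. The Y-linked genes Ddx3y, Eif2s3y, Kdm5d and Uty were at 0.01 to 0.96 TPM in the wild-type library. In the knockout library the same 4 genes were at 4.25 to 9.48 TPM. Y-linked RNA, and any difference in the sex of the mice behind it, thus cannot be told apart from genotype here. In bulk RNA, fewer cells of a type and less RNA per cell cannot be told apart either.

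The 10 genes did not move as a block. Hmox1 was 8.33-fold and Nqo1 2.12-fold higher in the knockout library, while Gpx2, by far the most abundant of them, was 2.03-fold lower. Nfe2l2, Gclc and Gclm were higher by less than 2-fold, and Keap1, Gsr, Srxn1 and Txnrd1 were lower by less than 2-fold. By any amount 5 members were higher, against 70.2% of all measured genes, and 5 were lower, against 29.8%. Past 2-fold, 2 of 10 were higher, against 23.1%, and 1 of 10 was lower, against 5.25%. These counts are too small to set the members apart from the background. The members had a median log2 ratio of 0.23, below the 0.39 of all measured genes, with 5 members above that median gene and 5 below it.

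**Figure D1:**
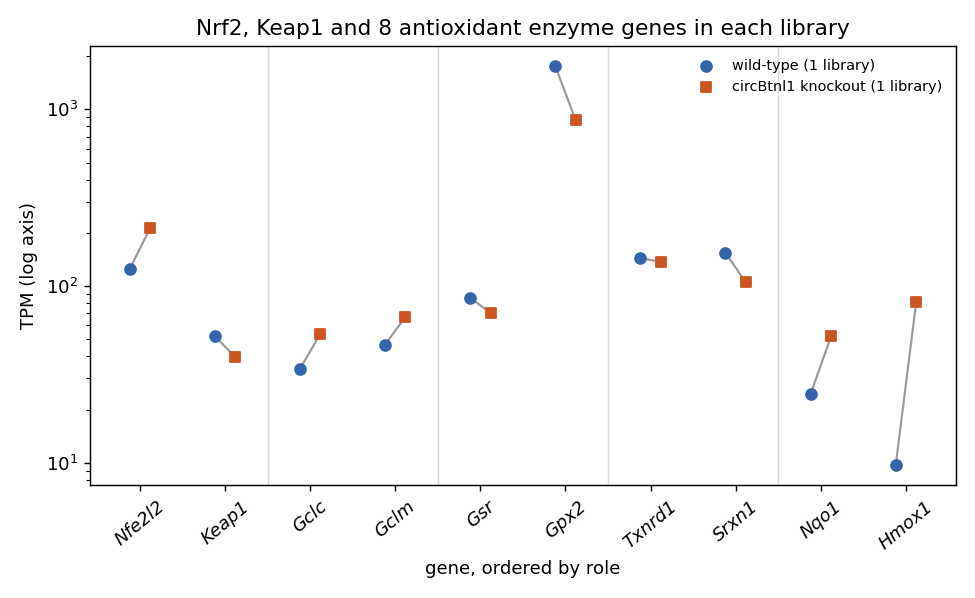
TPM (log axis) of the 10 genes, ordered by role, with the wild-type library as circles, the knockout library as squares and a line joining the values of a gene. Hmox1 went from 9.71 to 80.9 TPM, whereas Gpx2 stood at 1761 and 865 TPM, above the other members in both libraries.

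Nfe2l2 (chromosome 2, 75675513 to 75704663) stood at 124.6 and 212 TPM, a ratio of 1.70 and a log2 ratio of 0.77. Its level exceeded that of 89.4% of measured genes in wild-type and 94% in knockout cells, and its ratio exceeded that of 68.4% of them. Relative to the median gene its log2 ratio was 0.38. Keap1 (chromosome 9, 21229730 to 21239332) stood at 52.0 TPM and 39.8 TPM, which is 1.31-fold lower, and 84.5% of measured genes had a higher ratio. The TPM of Nfe2l2 was 2.39 times that of Keap1 in the wild-type and 5.34 times in the knockout library. Regulator and inhibitor thus lay on opposite sides of equality and of the median gene.

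The 3 measured genes closest to Nfe2l2 in the level of both libraries were Mat2a (125 and 207 TPM), Kcne3 (126 and 205 TPM) and Rps20 (129 and 217 TPM). They were the only 3 of 12124 protein-coding genes within a distance of 0.1 on the log2 scale. Closeness over 2 libraries says nothing more than that the pairs of values are alike.

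Both subunits of glutamate-cysteine ligase, the enzyme that makes the rate-limiting step of glutathione synthesis, were higher in the knockout library. Gclc (chromosome 9, 77754535 to 77794489), the catalytic subunit, stood at 34.0 TPM and 53.5 TPM, a ratio of 1.57. Gclm (chromosome 3, 122245487 to 122267215), the modifier subunit that raises the catalytic efficiency of Gclc, stood at 46.6 TPM and 67.0 TPM, a ratio of 1.44. Relative to the median gene their log2 ratios were 0.26 and 0.13, so they lay close to the middle of all genes. The pair kept nearly the same proportion, with 1.37 times as much Gclm as Gclc in the wild-type and 1.25 times as much in the knockout library.

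Of the members that use or regenerate glutathione, both Gsr and Gpx2 were lower. Gsr (chromosome 8, 33653238 to 33698162), glutathione reductase, which returns oxidised glutathione to its reduced form with NADPH, stood at 85.9 TPM and 70.5 TPM, or 1.22-fold lower. Gpx2 (chromosome 12, 76792335 to 76795554), the selenium-containing glutathione peroxidase of the gut epithelium, stood at 1761 TPM and 865 TPM, a log2 ratio of -1.02. It was the 67th most abundant of all measured genes in the wild-type and the 186th in the knockout library. A ratio lower than that of Gpx2 was found in 5.07% of measured genes, and relative to the median gene its log2 ratio was -1.42. With FPKM, which divides mapped fragments by transcript length and library total, Gpx2 stood at 850 and 436 FPKM and fell just short of 2-fold.

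Gpx2 made up 77.9% of the summed TPM of the 8 enzyme genes in wild-type and 60.5% in knockout cells. That sum was 2260 TPM and 1431 TPM, 1.58-fold lower, whereas the sum of the 7 other enzyme genes was 499 TPM and 566 TPM, a ratio of 1.13. The log2 ratio of the total thus changed sign with Gpx2 left out, although Gsr, Txnrd1 and Srxn1 were lower too. All 5 general epithelial markers were lower too, against 29.8% of all measured genes, with log2 ratios of -0.46 for Epcam to -1.13 for Vil1. Their single values were between 587 and 9793 TPM in the wild-type and between 328 and 5410 TPM in the knockout library. Their summed level was 13727 and 7837 TPM. The goblet cell markers were lower in 4 of 6 cases, against the same 29.8%. The part of the epithelial markers in the value of Gpx2 was not tested.

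The 2 members of the thioredoxin system were near equality and lower, respectively. Txnrd1 (chromosome 10, 82833951 to 82897724), the cytosolic thioredoxin reductase, stood at 143.9 TPM and 137 TPM, a log2 ratio of -0.07 that was the closest to 0 among the members. Srxn1 (chromosome 2, 152105524 to 152111376), sulfiredoxin, which repairs overoxidised peroxiredoxins, stood at 153.9 TPM and 104.8 TPM, or 1.47-fold lower. Relative to the median gene both were lower, with log2 ratios of -0.46 and -0.95, and 88.9% of measured genes had a higher ratio than Srxn1.

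The largest differences upward were in Nqo1 and Hmox1. Nqo1 (chromosome 8, 107388225 to 107403205), which reduces quinones with NADH or NADPH, stood at 24.5 TPM and 52.0 TPM, a log2 ratio of 1.08, exceeded by 20.5% of measured genes. It was only just past 2-fold, and relative to the median gene its log2 ratio was 0.69. Hmox1 (chromosome 8, 75093618 to 75100593), the inducible heme oxygenase that breaks heme down to biliverdin, iron and carbon monoxide, stood at 9.71 TPM and 80.9 TPM, a log2 ratio of 3.05. A higher ratio was found in 4% of measured genes, and the log2 ratio of Hmox1 relative to the median gene was 2.66.

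Hmox1 was the lowest member in the wild-type library, about 140 reads by the estimated depth, and the fifth highest in the knockout library, with about 1100 reads. The exact 95% binomial interval of its ratio from these approximate reads was 6.99 to 9.998, which covers counting error only and not the spread between mice. The same interval was 1.86 to 2.42 for Nqo1 and, as a fold lower, 1.98 to 2.09 for Gpx2, so counting error alone leaves both on either side of 2-fold. Keap1 moved the other way in the order of levels, from the sixth highest member to the lowest. In the knockout library Gclc and Nqo1, at 53.5 and 52.0 TPM, were nearly level.

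Macrophages, which degrade the heme of red cells, are known for high Hmox1. Of 12 macrophage and myeloid markers 10 had a lower TPM in the knockout library, against 29.8% of all measured genes. The 12 markers summed to 37.3 and 13.5 TPM. They ranged from a listed 0 to 8.09 TPM in the wild-type and to 5.53 TPM in the knockout library. Of the defining markers Adgre1 was at a listed 0 and 0.04 TPM, Cd163 at 0.16 and 0.03 TPM, and Csf1r at 1.33 and 0.31 TPM. C1qa was nearly level, at 2.72 and 2.82 TPM. The 5 erythroid markers, 4 of them globin genes, were all lower too, against the same 29.8%, and summed to 277 and 11.3 TPM. Fibroblast markers were higher by any amount in 5 of 6 cases, against 70.2% of all measured genes, and summed to 33.8 and 123.6 TPM. Single markers lay between 0.06 and 13.6 TPM in the wild-type and between 0.71 and 64.4 TPM in the knockout library. Col1a2, at 3.76 and 64.4 TPM, gave most of the rise in the sum. Dcn (13.6 and 34.85 TPM), Pdgfrb (2.68 and 12.4 TPM) and Pdgfra (0.06 and 0.71 TPM) were higher too. Col1a1 was nearly level at 7.95 and 8.05 TPM, and Col3a1 was lower at 5.73 and 3.18 TPM. The part of these cell types in the value of Hmox1 was not tested.

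**Figure D2:**
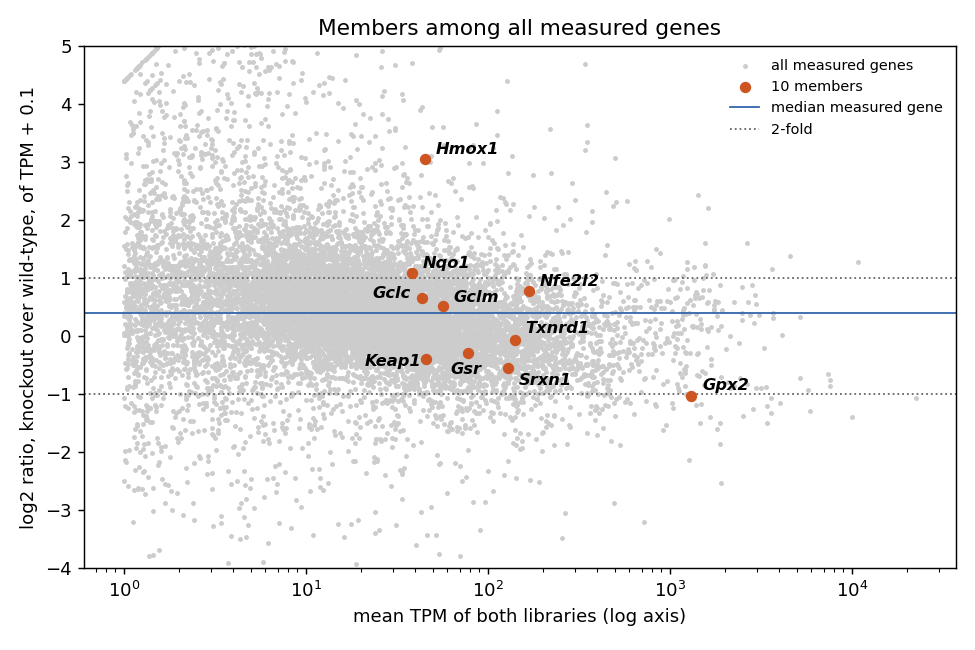
Log2 ratio, knockout over wild-type, against mean TPM (log axis) for all 12666 measured genes in grey and the 10 members as labelled points, with the median gene as a solid line and 2-fold as dotted lines. The axis leaves out 173 genes above 5 and 51 below -4, none of them members. Apart from Hmox1, and Gpx2 at the right, the members lie within the dense band of genes at their level.

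The sign of the log2 ratio was the same for each member in TPM, in FPKM and under the 4 other scalings, while the count past 2-fold was not. Each scaling moves all genes together and downward, so a lower member could not change sign there. In FPKM Txnrd1 was almost level, with a log2 ratio of -0.009, so its sign there carries little weight. Nqo1 was 2-fold higher in TPM and FPKM but not under any of the 4 other scalings. Gpx2 was 2-fold lower in TPM and under these 4 scalings but not in FPKM. Hmox1 kept a log2 ratio between 2.65 and 3.09.

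**Figure D3:**
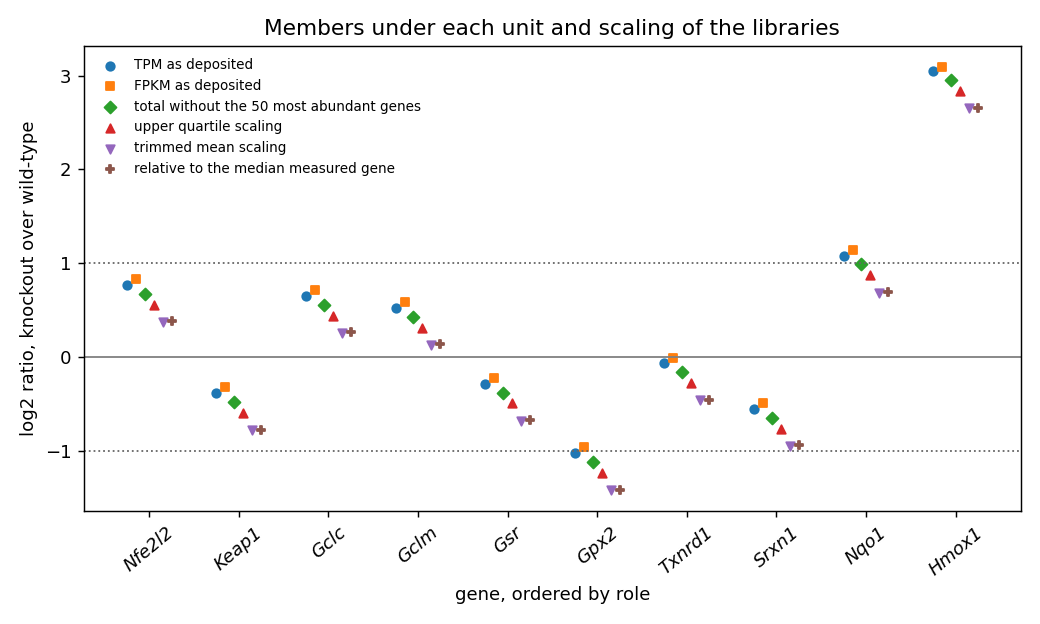
Log2 ratio of each member with TPM or FPKM as deposited and under 4 ways of putting the libraries on a common scale, as separate symbols, with dotted lines at 2-fold. Every member keeps its side of 0, though Txnrd1 lies almost on it in FPKM. Nqo1 and Gpx2 straddle a dotted line, and Hmox1 stays above 2.65.

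Beyond the members, 11 lists of further genes of the pathway were read in the same way, with 136 different genes in the table. Of the 127 measured genes 21 (16.5%) were higher by 2-fold or more and 2 (1.57%) lower by as much, shares below the 23.1% and 5.25% of all measured genes. Their median log2 ratio was 0.26, below the 0.39 of all measured genes. Relative to the median gene 10 (7.87%) were higher and 10 (7.87%) lower by that size, against 13.5% and 10.2% of all measured genes. The lists hold few genes, so each count below is only a description beside the background of 23.1% upward and 5.25% downward, and each median is read beside 0.39.

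Partners and regulators of Nrf2 had a median log2 ratio of 0.56, with 3 of 15 measured genes past 2-fold upward, against 23.1% of all measured genes, and none (0) downward. The small Maf genes, whose products pair with Nrf2 on DNA, were Maff at 20.2 and 54.5 TPM, Mafg at 18.5 and 40.1 TPM and Mafk at 48.6 and 54.9 TPM. Bach1, a repressor that competes for the same elements and is released by heme, stood at 24.6 and 17.0 TPM. Cul3, the ligase scaffold that Keap1 serves, stood at 29.1 and 58.1 TPM, while Sqstm1, the autophagy receptor p62 that can sequester Keap1, was the most abundant at 276 and 479 TPM. Sesn2, a stress-induced regulator of mTORC1, was 2.63-fold higher, at 8.11 and 21.4 TPM. Dpp3, whose product binds Keap1, stood at 112 and 77.5 TPM, and the kinase gene Prkcd at 249 and 189 TPM.

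The list of glutathione synthesis and transport, which also holds genes of glutathione breakdown such as Chac1, had a median of 0.71. That median was 0.43 with no floor on low values or with a floor of 5 TPM. In the list 5 of 12 genes were past 2-fold upward, against the same 23.1%, and none (0) downward. Chac1, which breaks glutathione down, was 7.79-fold higher, at 3.09 and 24.1 TPM. Slc7a11, the cystine importer, was low in both libraries, at 0.44 and 2.27 TPM, and its partner chain Slc3a2 stood at 67.8 and 149.9 TPM. Gss, glutathione synthetase, which completes the molecule after Gclc and Gclm, was nearly equal at 151.8 and 146 TPM. Abcc3, a conjugate exporter, and Ggt6, of the gamma-glutamyltransferase family, stood at 203 and 149.9 TPM and at 84.5 and 56.9 TPM.

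The other glutathione peroxidases differed among themselves. Gpx1, the ubiquitous cytosolic enzyme, stood at 516 and 413 TPM, Gpx4, which protects membrane lipids, at 229 and 383 TPM, and Gpx7 at 3.84 and 1.93 TPM, 1.99-fold lower and so close to the ratio of Gpx2. The Gpx8 gene, whose product lies in the endoplasmic reticulum, stood at 0.75 and 66.6 TPM. The list had a median of -0.09 over 5 measured genes, or 0.32 with a floor of 5 TPM. Gpx2 exceeded Gpx1 3.42-fold in the wild-type and 2.10-fold in the knockout library. Genes that insert selenocysteine, the residue in the active site of Gpx2 and Txnrd1, had a median of 0.60, and 1 of 8, Pstk at 8.54 and 17.6 TPM, was past 2-fold. Sephs2, which supplies the activated selenium, stood at 36.3 and 55.5 TPM, and Sepsecs, the synthase that completes the residue on its transfer RNA, at 8.09 and 14.8 TPM. The elongation factor gene Eefsec was nearly level at 29.7 and 28.2 TPM, and so was Selenop, a secreted selenium carrier, at 186 and 174 TPM.

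Glutathione transferases, which couple glutathione to electrophiles, had a median of 0.03 (-0.36 relative to the median gene), and 20 of 22 measured genes were within 2-fold. The abundant Mgst3 stood at 1428 and 1556 TPM and Gstp1 at 1128 and 1170 TPM. Gsta4, which detoxifies the lipid peroxidation product hydroxynonenal, was 2.48-fold higher, and Gsto2 stood at 0.43 and 9.2 TPM. Mgst1 stood at 266 and 159 TPM and Gstt3 at 84.4 and 62.8 TPM. Several of these genes have near-identical copies, Gstp1 and Gstp2 among them, so the split of reads within the family is uncertain.

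In the thioredoxin and peroxiredoxin list, with a median of 0.19 that was -0.20 relative to the median gene, 1 of 19 genes was past 2-fold upward and 1 downward. The latter was Prdx6, a peroxiredoxin that also acts on phospholipids, at 1642 and 819 TPM, which is just past 2-fold. Txn1, the substrate of Txnrd1, stood at 1429 and 966 TPM, and Glrx, glutaredoxin, at 285 and 178 TPM. Prdx1, a substrate of Srxn1, stood at 467 and 538 TPM. The methionine sulfoxide reductase gene Msrb2 was 2.23-fold higher at a low level, 1.46 and 3.25 TPM, and Glrx3 stood at 69.2 and 116.3 TPM.

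None (0) of 9 genes that supply NADPH was past 2-fold, and their median was 0.12, or -0.27 relative to the median gene. The first and the third enzymes of the pentose phosphate pathway, G6pdx and Pgd, stood at 139 and 73.6 TPM and at 589 and 348 TPM. Taldo1, transaldolase of the same pathway, was nearly level at 444 and 482 TPM, and Nadk, NAD kinase, stood at 149.3 and 228 TPM. Me1, malic enzyme, stood at 29.4 and 41.7 TPM. Of the genes that remove superoxide and peroxide, Sod1 stood at 456 and 619 TPM, Sod2 at 39.0 and 44.3 TPM, Sod3 at 3.77 and 1.98 TPM and Cat, catalase, at 41.0 and 46.1 TPM. None (0) of these 4 was past 2-fold, and their median log2 ratio was 0.18, or -0.21 relative to the median gene.

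Genes of quinone, aldehyde and drug reduction, the group nearest to Nqo1 in function, had a median of 0.61, and 5 of 17 were at least 2-fold higher, against 23.1% of all measured genes. Adh7 stood at 1.29 and 25.4 TPM and the carboxylesterase gene Ces1g at 9.32 and 62.5 TPM. Nqo2, the relative of Nqo1, stood at 10.8 and 20.9 TPM. The abundant Akr1a1 and Cbr1, carbonyl-reducing enzymes, stood at 680 and 590 TPM and at 317 and 339 TPM.

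Around Hmox1, the genes of heme and iron handling had a median of 0.15 over 8 measured genes, or -0.24 relative to the median gene. Hmox2, the constitutive heme oxygenase, was level at 53.8 and 53.6 TPM, and so was Blvrb, a biliverdin reductase, at 69.9 and 69.4 TPM. Slc48a1, which carries heme out of endosomes, was 2.20-fold higher, and Slc40a1, the iron exporter ferroportin, was 2.88-fold lower, at 111.2 and 38.6 TPM. The ferritin chains Fth1 and Ftl1 stood at 2238 and 3675 TPM and at 2718 and 3480 TPM. Other targets of electrophiles had a median of 0.30, or -0.09 relative to the median gene. Among them the metallothionein genes Mt2 and Mt1 were 10.1-fold and 2.64-fold higher, and the oxidative stress growth inhibitor Osgin1 and the receptor gene Tnfrsf1a stood at 51.9 and 29.5 TPM and at 140.7 and 80.9 TPM.

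**Figure D4:**
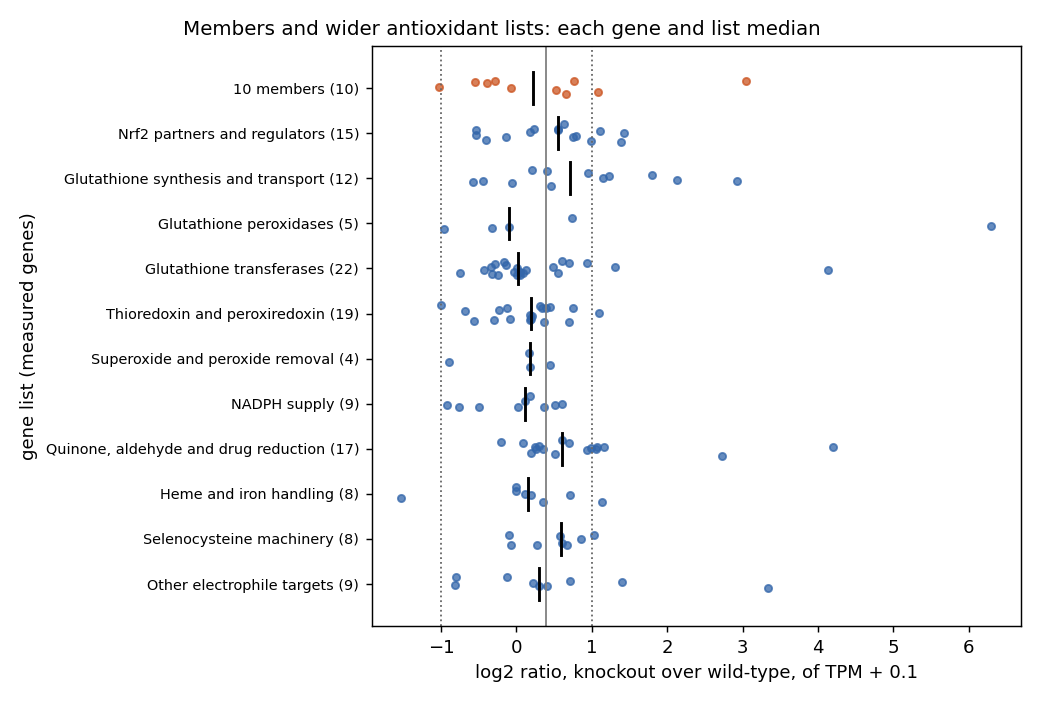
Log2 ratio, knockout over wild-type, of each measured gene (points) and the median (short black line) for the 10 members and 11 wider lists, with the number of measured genes after each name, the median of all measured genes as a solid grey line and 2-fold as dotted lines. Members spread from -1.02 to 3.05, and list medians run from -0.09 to 0.71.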

How the data were processed

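The authors deposited 1 table of genes with TPM and FPKM for each library, rounded to 2 decimals, per the file headers. The submitters' processing notes name build mm10, Bowtie2, RSEM and DESeq2, with no version or role. Because TPM values add up to a fixed total, abundant genes lower all others. Reads of near-identical genes can only be split by a model in such estimates. One line without values was left out, and 0 columns of values were unused. Ratios were computed in Python 3.11.15 (pandas 2.3.3). A check with known folds put without noise into a copy of the wild-type values tested the arithmetic only. No replicate exists, so no test was run. Members and lists were chosen with earlier results of these data known. In each list the 2 highest, 2 lowest and 2 most abundant genes were named, and Mafg, Mafk, Cul3, Slc3a2, Nqo2, Hmox2 and Prdx1 were added after their values were seen. Gpx5, Gpx6 and Trim16l were not analysed here.

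Depth came from low values of single-transcript genes, of which 62% of 192 (wild-type) and 61.3% of 235 (knockout) lay within 0.15 of a whole read at the best depth, where chance gives 30%. Reads per member used the longest coding transcript of GENCODE and are approximate. Alternatives changed the unit, pseudocount, scaling, floor and threshold.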

Additional observations from a re-analysis of the deposited data

How the results depend on the processing

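No paired analysis was possible because each group had 1 library, and for the same reason no library could be left out. No member changed sign in FPKM or under the 4 other scalings (0 of 50 values), while pseudocounts and floors cannot change a member's sign. Txnrd1 was almost at 0 in FPKM, with a log2 ratio of -0.009. Each of these 5 alternatives moves all genes by about the same amount, so the 50 values are not independent. The 4 scalings moved the log2 ratios down, by 0.09 to 0.39, so they could not change the sign of a lower member. List medians changed sign in 19 of 99 values, in 7 of 11 lists, all but 1 of these values under the scalings. With FPKM 0 members were 2-fold lower, against 4.77% of all measured genes. Under the 4 other scalings 1 member was 2-fold higher, against 13.5% to 20.1% of all measured genes. At a 1.5-fold threshold 4 members were higher, against 40.1%. The members' median was -0.16 relative to the median gene, -0.17 under trimmed mean scaling and 0.015 under upper quartile scaling. Counts of all genes were 1716 higher and 1295 lower relative to the median gene, 1711 and 1306 under trimmed mean scaling, and 5079 and 1344 at 1.5-fold. With no floor 1176 were lower, and with a floor of 5 TPM 1907 were higher, as other genes were counted. The longer promoter core was in 3.04% of windows and TGAGNNNGC in 17.6%. A pseudocount of 1 or 0.01 changed none of these counts by more than 1.5 times. Counting error of the members is small at these depths, and the spread between mice is unknown.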
